A study of Homo sapiens with 12 samples.

Results

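The mRNA decay machinery genes are the 69 gene symbols of the count table that encode the exosome (EXOSC), the CCR4-NOT complex (CNOT), the LSM proteins, the nonsense-mediated decay factors (UPF and SMG) and 21 named decay factors, among them the decapping enzymes, the exonucleases XRN1 and XRN2, the deadenylases PAN2, PAN3 and PARN, the nucleases of the DIS3 family and the ribosome rescue pair PELO and HBS1L. They were picked from 26334 symbols by a rule on the symbol, with hyphenated symbols left out. The rule uses no measured value, but it was chosen with earlier results of these data known. Of the 69, 66 averaged 10 counts or more per library and were tested among 12032 genes. The 3 that missed this minimum, SMG1P1, SMG1P2 and SMG1P5, are pseudogenes of SMG1. CNOT9 is listed under its older symbol RQCD1, which the rule did not take, and is given among the other genes of the pathway.

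The cells were A673 Ewing sarcoma cells of the line labelled shA673-1c, an established tumour cell line. All of them were kept in medium with blasticidin and zeocin, seeded in 6-well plates and given 5 µM actinomycin D (ActD), a DNA intercalator that blocks RNA synthesis, and RNA was taken at 0, 1, 2 and 4 h. Each time held 3 samples that the labels call biological replicates, and poly(A)-selected RNA was sequenced with a stranded kit. The 0 h samples were the reference, and no sample was followed over time without ActD. The column labels of all 12 samples, not only those of 0 h, begin with CTL. The p-values measure only the spread between these samples of 1 cell line.

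An mRNA is usually degraded after its poly(A) tail has been shortened by the PAN2-PAN3 and CCR4-NOT deadenylases. The body is then either decapped by DCP2 and its activators and digested from the 5′ end by XRN1, or digested from the 3′ end by the exosome with the Ski complex. Nonsense-mediated decay removes mRNAs with a premature stop codon, and no-go decay acts where ribosomes stall.

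With new synthesis blocked, the change of an mRNA was described by its slope, the log2 change per hour of its counts over the 12 libraries. A negative slope is also given as a half-life, the time for the level to fall to 50% at 1 constant rate. Where the fit allowed for replicate number, 18 members departed from such a straight line, among them PELO, SMG8, TOB1, TOB2, CNOT4 and DCP1B. The half-lives of these members are averages over stretches of unlike slope. The RNA was poly(A)-selected, so the half-lives are those of poly(A) RNA. No RNA was spiked in, so slopes are relative to the scaling of the libraries by the trimmed mean of M-values (TMM), under which the median slope of all tested genes was 0.0093. Levels in single libraries are given as CPM, the counts scaled to a common library size after TMM, in the order of replicates 1, 2 and 3. Adjusted p-values for slopes are from edgeR with Benjamini-Hochberg adjustment over all 12032 genes and the threshold was 0.05. The libraries were bulk RNA, so fewer cells with a transcript and less of it per cell cannot be told apart.

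Library totals ranged from 9147018 to 11194705 counts with a median of 10107332. MYC, a short-lived mRNA named here as a check of the time labels, fell from 135 ± 11.5 CPM (SD, n = 3) at 0 h to 8.37 ± 2.76 at 4 h. GAPDH and ACTB, which are often used as stable references, had slopes of 0.15 and 0.12 under TMM, and scaling each library to their summed counts moved the median slope of all genes by -0.14. The Ewing sarcoma markers LIPI (1045 to 1622 counts), CCND1 (15630 to 20886), STEAP1 (499 to 708), NR0B1 (69 to 451) and NKX2-2 (7 to 87) were present, and CD99 was listed at 0 in all 12 libraries. Among markers of other cell types PTPRC, PECAM1, EPCAM, KRT5, MYOD1 and ALB had at most 6 counts in any library and DES 5 to 30 counts.

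Of the 66 tested members, 26 fell (39.4%), 18 rose (27.3%) and 22 did not pass the threshold. Among all tested genes 32.1% fell and 30.7% rose. The 44 called members had the same sign of slope in each of the 3 replicates. This is no separate support, since the calls were made from these same replicates, and the share among all called genes is not given here. The median slope of the members was -0.010, with quartiles of -0.15 and 0.048. The quartiles of all genes were -0.13 and 0.089. The 26 falls under TMM kept their sign and their call with library totals and with the scaling to GAPDH and ACTB. These scalings moved the median slope of all genes by -0.039 and -0.14, so they could weaken a rise but could hardly remove a fall. No scaling that raises slopes as much was tried. Under the GAPDH and ACTB scaling 1 of the 18 rising members still rose, 13 had slopes below 0 and 9 of those passed the threshold as falling. With library totals 9 of the 18 still rose and 1 had a slope below 0. Without replicate 2 the number of rising members was 11, against 24.6% of all genes, and without replicate 1 it was 12, against 25.7%. Falls were lost too. Of the 26, 21 still passed without replicate 1, 21 without replicate 2, 24 without replicate 3 and 14 without the 4 h libraries, where 1 changed sign. Of all genes 29.4%, 28.8%, 30.7% and 18.4% fell in these fits.

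**Figure D1:**
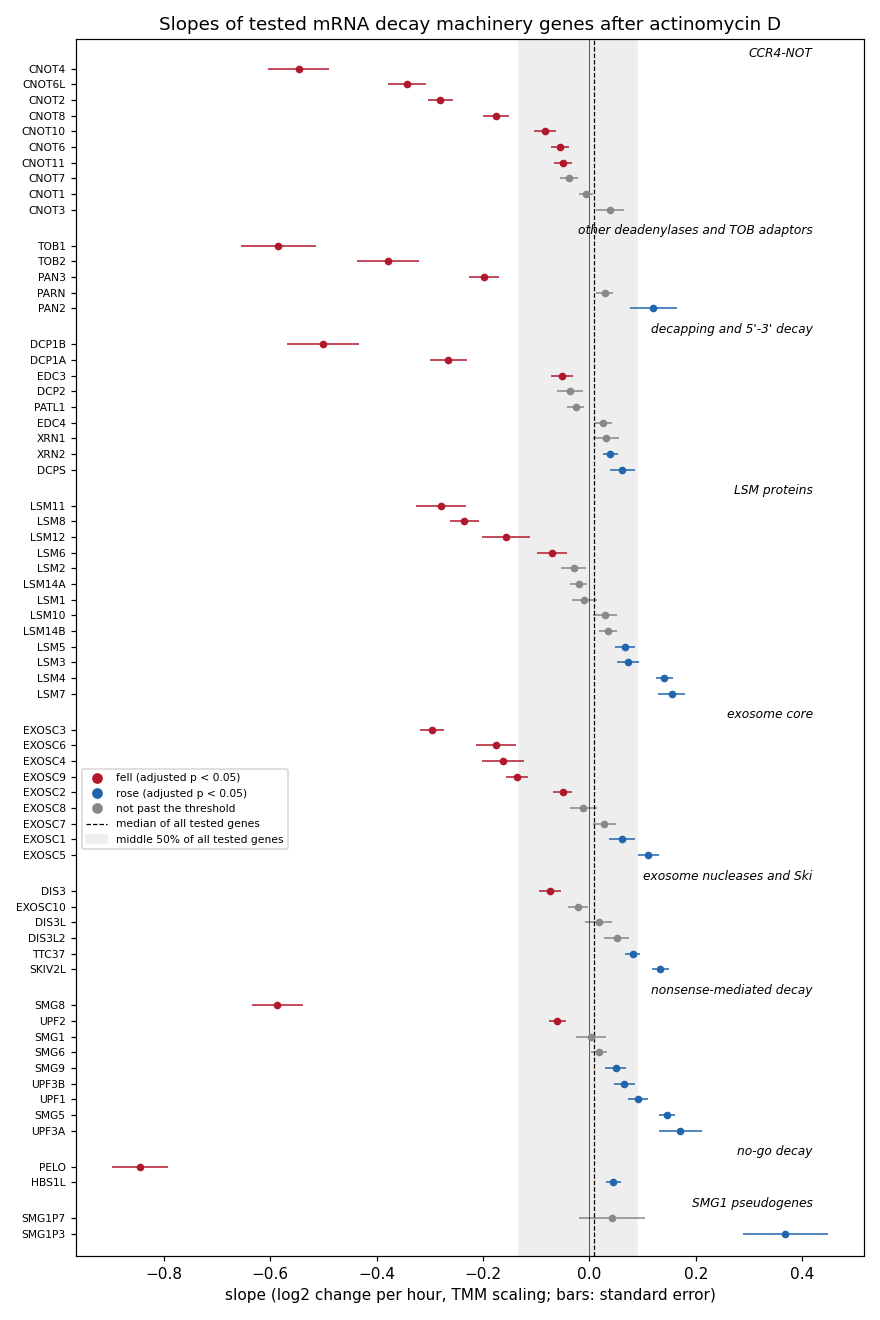
Slope (log2 change per hour, TMM scaling) of each tested member with its standard error, grouped by role, beside the median (dashed) and the middle 50% (grey) of all tested genes. The steepest falls (PELO, SMG8, TOB1, CNOT4, DCP1B) lie in 5 different role groups, the highest slopes stay below 0.2 apart from SMG1P3, and 13 of the 18 rising members have slopes below 0 under the GAPDH and ACTB scaling.

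Of the tested members 11 (16.7%) fell with a half-life of at most 4 h, the length of the time course, and the same was true of 14.7% of all tested genes. Under the GAPDH and ACTB scaling the count was 18, against 27.5% of all genes. The 8 steepest were PELO, SMG8, TOB1, CNOT4, DCP1B, TOB2, CNOT6L and EXOSC3. In 7 of these 8 the 3′ untranslated region (UTR) of the GENCODE canonical transcript holds the pentamer ATTTA, the core of AU-rich elements that many short-lived mRNAs carry. ATTTA is as common elsewhere, in 85.5% of all tested protein-coding genes that fell and 74.9% of all tested protein-coding genes. The 30-base windows richest in ATTTA are shown to let the letters be seen beside the slopes. They are those of SMG8 and of the 3 of these 8 members whose window holds 2 copies. They are read 5′ to 3′ on the transcript strand with ATTTA in capitals, and positions are GRCh38 from GENCODE 44.
PELO, chr5:52802675-52802704, plus strand: atgctatattATTTATTTAtttttttgctt
TOB1, chr17:50862645-50862674, minus strand: taattgtataATTTAATTTAgtacaaagtt
CNOT6L, chr4:77718848-77718877, minus strand: taggtcaaATTTAaattATTTAattagttt
SMG8, chr17:59215162-59215191, plus strand: tatattgttgatATTTAttgtaaacgtgac

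In the PELO window both copies overlap by 1 base, and in the CNOT6L window they are separated by 4 bases. The 3′ UTR of CNOT6L holds 26 copies in 7044 bases, that of PELO 11 in 2204 bases, that of TOB1 4 in 757 bases and that of SMG8 1 in 228 bases. DCP1B, which also fell steeply, has none in its 153-base 3′ UTR. Members that did not fall hold copies as well. HBS1L, which rose, has 22 in 4901 bases (4.49 per kb, against 4.99 for PELO). TTC37, which also rose, has 6 in 713 bases, and DCP2, not past the threshold, has 28 in 8711 bases. At least 2 copies within 30 bases were found in 11 of the 26 coding members that fell (42.3%), in 3 of the 17 that rose (17.6%) and in 1 of the 21 not past the threshold (4.76%). In all tested protein-coding genes the same shares were 34.6%, 17.4% and 28.9%.

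The no-go decay pair moved furthest apart. PELO, the human Pelota, recognises ribosomes stalled with an empty A site, and HBS1L is the GTPase that delivers it. PELO was at 54.3, 50.6 and 48.0 CPM at 0 h, 43.6, 37.8 and 35.0 at 1 h, 21.8, 15.6 and 15.0 at 2 h and 5.69, 5.61 and 3.92 at 4 h. Each time lay wholly below the one before it. The slope of PELO was -0.85 per hour (SE 0.052, adjusted p = 2.76e-09), a half-life of 1.18 h, and 9.96% of its 0 h level remained at 4 h. It was the 105th lowest slope of the 12032 genes. HBS1L was at 85.3, 88.1 and 92.5 CPM at 0 h, 85.1, 84.4 and 89.8 at 1 h, 94.2, 91.2 and 94.9 at 2 h and 96.9, 99.0 and 100.2 at 4 h. The 3 libraries at 4 h were above the 3 at 0 h, and HBS1L rose with a slope of 0.045 (SE 0.014, adjusted p = 0.00977). This small rise lost its call without replicate 1 (adjusted p = 0.0688) and without replicate 2 (0.0625), was 0.0060 with library totals (0.746), and turned to -0.093 under the GAPDH and ACTB scaling.

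The difference between 2 genes in a library does not depend on the scaling, so 14 pairs of paralogs or partners were compared by the slope of the log2 ratio of their counts, each with an exact two-sided permutation test over the 369600 arrangements of the libraries, adjusted over the 14 pairs. In all, 11 pairs passed the threshold. The pairs were chosen with earlier results of these data known, so their p-values are descriptive. The share of gene pairs in general that would pass was not computed, so the count says nothing particular about these pairs. The PELO to HBS1L ratio went from 0.575 at 0 h to 0.0512 at 4 h, a slope of -0.91 (SE 0.061, exact adjusted p = 3.79e-05), and lay between -0.88 and -0.97 in the single replicates. PELO lies at chr5:52787916-52804044, inside the gene body of ITGA1 on the same strand, so reads from ITGA1 in this region could be counted for PELO depending on the counting, which is not given in the sources used here. The gene bodies of 7 members overlap a coding gene model on the same strand in GENCODE 44, and the same limit holds for SMG8, EXOSC3, EXOSC4, EXOSC7 (with CLEC3B), SMG1P1 (with NPIPB5) and SMG1P3 (with NPIPB3).

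**Figure D2:**
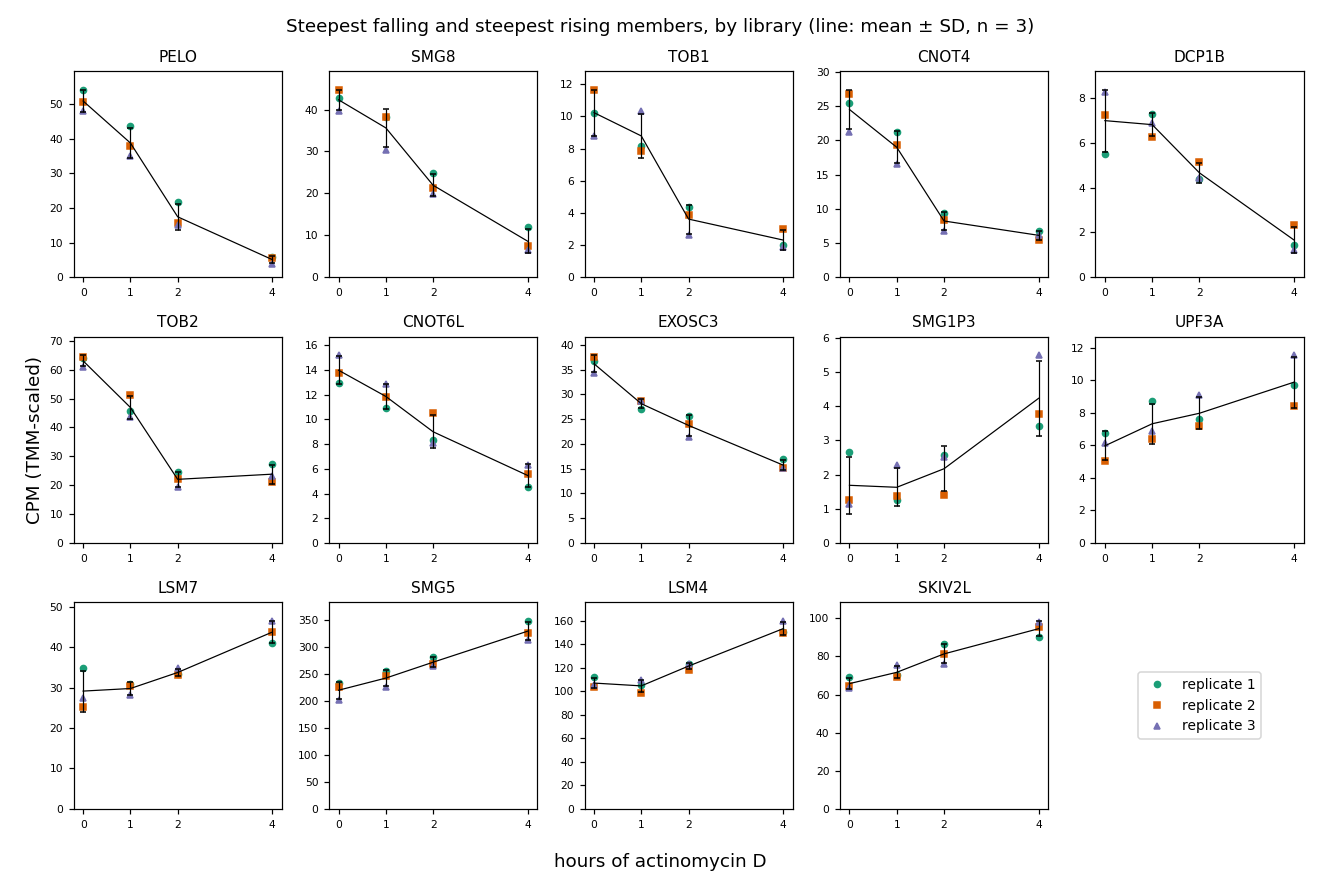
TMM-scaled CPM (linear axis from 0, a scale of its own in each panel) against hours of ActD for the 8 steepest falling and the 6 steepest rising members, with 1 point per library and a line through the mean of the 3 replicates with its SD. TOB2 stays level between 2 and 4 h while PELO, SMG8 and DCP1B go on falling, and among the rises only that of SMG1P3 also passes the threshold under the GAPDH and ACTB scaling.

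CCR4-NOT is built on the scaffold CNOT1 and carries 2 deadenylases at a time, 1 of CNOT6 and CNOT6L and 1 of CNOT7 and CNOT8. Of its 10 tested subunits 7 fell, 0 rose and 3 did not pass the threshold, with a median slope of -0.069, where 32.1% of all tested genes fell and 30.7% rose. The counts of the other role groups stand beside these same shares. The members that fell were CNOT4 (slope -0.55), CNOT6L (-0.34), CNOT2 (-0.28), CNOT8 (-0.17), CNOT10 (-0.083), CNOT6 (-0.055) and CNOT11 (-0.050). CNOT1 had a slope of -0.0058, CNOT7 one of -0.039 and CNOT3 one of 0.038. In the contrast of 4 h against 0 h 8 subunits were lower and 1 was higher, beside 31.6% and 28.7% of all tested genes. The higher one was CNOT3, by 0.24 on the log2 scale (adjusted p = 0.0145 in edgeR). With the replicate number as a block CNOT7 also passed as falling (adjusted p = 0.00661, against 0.056 without the block), and under the GAPDH and ACTB scaling 10 of 10 fell, as did 64.2% of all tested genes.

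CNOT4 is a RING-finger ubiquitin ligase of the complex. CNOT4 was at 25.5, 26.8 and 21.2 CPM at 0 h, 21.2, 19.2 and 16.5 at 1 h, 9.44, 8.41 and 6.78 at 2 h and 6.75, 5.42 and 6.16 at 4 h. The 1 h values were narrowly below the 0 h values, and the drop from 1 to 2 h was larger than that from 2 to 4 h. CNOT4 fell with a half-life of 1.83 h (slope SE 0.057, adjusted p = 4.76e-07). In edgeR without a replicate block it was 1 of the 2 members that departed from a straight line (adjusted p = 0.0456).

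The CCR4-type deadenylases CNOT6 and CNOT6L are close paralogs. CNOT6L was at 12.98, 13.8 and 15.2 CPM at 0 h, 10.9, 11.8 and 12.9 at 1 h, 8.35, 10.5 and 8.13 at 2 h and 4.50, 5.61 and 6.28 at 4 h. CNOT6L had lower values at each later time, with no overlap between the times, and fell with a half-life of 2.92 h (slope SE 0.037, adjusted p = 5.76e-07). CNOT6 was at 105, 109.6 and 114 CPM at 0 h, 101, 96.9 and 109.8 at 1 h, 93.1, 94.4 and 101 at 2 h and 89.6, 90.8 and 102 at 4 h. The CNOT6 slope (SE 0.017, adjusted p = 0.00931) lost its call without replicate 1 (0.055) and without replicate 2 (0.0617). The CNOT6 to CNOT6L ratio rose from 7.83 to 17.2, with a slope of 0.29 (SE 0.030, exact adjusted p = 3.79e-05).

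CNOT7 and CNOT8 are the CAF1-type deadenylases. CNOT7 was at 132, 146 and 127 CPM at 0 h, 122, 129 and 118 at 1 h, 118, 129 and 122 at 2 h and 112, 128 and 117 at 4 h. CNOT8 was at 76.0, 86.9 and 78.9 CPM at 0 h, 76.6, 83.8 and 78.7 at 1 h, 67.4, 78.2 and 73.7 at 2 h and 47.5, 54.5 and 49.0 at 4 h. The CNOT8 values at 1 h overlapped those at 0 h and the values at 4 h were well below both. The ratio of CNOT7 to CNOT8 went from 1.67 to 2.36, a slope of 0.14 (SE 0.026, exact adjusted p = 0.00409), and the gain came after 2 h, since over 0, 1 and 2 h alone the slope was 0.0044 (exact adjusted p = 0.967).

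The other deadenylases and the TOB adaptors held 3 members that fell, 1 that rose and 1 not past the threshold. TOB1 and TOB2 are antiproliferative proteins that join the CAF1 deadenylases to poly(A)-binding protein. TOB1 was at 10.2, 11.7 and 8.79 CPM at 0 h, 8.14, 7.86 and 10.3 at 1 h, 4.37, 3.85 and 2.61 at 2 h and 2.01, 3.00 and 1.91 at 4 h. TOB2 was at 64.0, 64.2 and 60.8 CPM at 0 h, 45.8, 51.2 and 43.8 at 1 h, 24.6, 22.2 and 19.3 at 2 h and 27.4, 21.0 and 23.1 at 4 h. TOB2 was already lower at 1 h than at 0 h in the 3 replicates, by 0.43 on the log2 scale, and its 2 h and 4 h values overlapped. TOB1 fell with a half-life of 1.71 h (slope SE 0.071, adjusted p = 2.2e-06) and TOB2 with one of 2.64 h (slope SE 0.059, adjusted p = 3.04e-05). TOB2 was the member with the clearest departure from a straight line (adjusted p = 0.00127), so its half-life is an average over a steep and a flat stretch. The TOB1 to TOB2 ratio went from 0.162 to 0.0975, a slope of -0.21 (SE 0.070, exact adjusted p = 0.0219), which lost its call without replicate 1 (0.123) and without replicate 3 (0.0599).

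PAN2 is the catalytic subunit and PAN3 the adaptor of the deadenylase that trims long tails. PAN2 was at 23.4, 23.6 and 31.1 CPM at 0 h, 28.3, 25.1 and 42.4 at 1 h, 26.6, 27.9 and 36.2 at 2 h and 33.8, 35.4 and 45.0 at 4 h. PAN3 was at 52.8, 58.5 and 44.4 CPM at 0 h, 54.3, 53.3 and 43.7 at 1 h, 37.8, 42.2 and 36.2 at 2 h and 32.4, 32.6 and 28.4 at 4 h. Replicate 3 was the highest of its time for PAN2 and the lowest for PAN3 at each of the 4 times. PAN2 rose with a slope of 0.12 (SE 0.044, adjusted p = 0.0255), which did not pass without replicate 1 (0.0795) or replicate 2 (0.13) or with library totals (0.16) and was -0.018 under the GAPDH and ACTB scaling, and PAN3 fell with a slope of -0.20 (SE 0.029, adjusted p = 1.81e-05). Their ratio went from 0.501 to 1.22, a slope of 0.32 (SE 0.074, exact adjusted p = 0.004). PARN, another poly(A) ribonuclease, had a slope of 0.029 and an adjusted p of 0.127 in edgeR.

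In decapping and 5′-3′ decay, 3 of 9 members fell, 2 rose and 4 did not pass. DCP1A and DCP1B are paralogous activators of the decapping enzyme DCP2. DCP1B was at 5.51, 7.24 and 8.26 CPM at 0 h, 7.28, 6.29 and 6.90 at 1 h, 4.37, 5.17 and 4.45 at 2 h and 1.42, 2.32 and 1.23 at 4 h. DCP1A was at 23.5, 19.6 and 20.0 CPM at 0 h, 19.0, 20.5 and 18.5 at 1 h, 13.01, 11.2 and 14.3 at 2 h and 10.6, 11.4 and 9.86 at 4 h. DCP2 was at 56.1, 52.9 and 56.8 CPM at 0 h, 45.1, 47.9 and 48.5 at 1 h, 45.3, 42.0 and 49.95 at 2 h and 46.2, 45.7 and 54.1 at 4 h. DCP1B stayed within its 0 h range at 1 h and was below it at 2 and 4 h, DCP1A at 4 h was at 50.5% of its 0 h level, and DCP2 overlapped between 0 and 4 h. DCP1B fell with a half-life of 2.00 h (slope -0.50, SE 0.068, adjusted p = 7.61e-06) and DCP1A with a slope of -0.27 (SE 0.035, adjusted p = 5.74e-06). The DCP2 slope was -0.037 (adjusted p = 0.195). The ratio of DCP2 to DCP1A rose from 2.63 to 4.56, with a slope of 0.23 (SE 0.038, exact adjusted p = 0.000364). The ratio of DCP1A to DCP1B rose from 3.02 to 6.44, with a slope of 0.29 (SE 0.084, exact adjusted p = 0.0134), and lost its call without replicate 3 (0.155).

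The decapping activator EDC3 fell (slope -0.051, adjusted p = 0.0341), with slopes of -0.0087, -0.071 and -0.077 in replicates 1, 2 and 3. Its contrast of 4 h against 0 h did not pass in edgeR (adjusted p = 0.0554). The slopes of EDC4 (0.026) and the LSM ring partner PATL1 (-0.026) did not pass. The scavenger decapping enzyme DCPS (0.062) and the nuclear exonuclease XRN2 (0.039) rose under TMM and had slopes of -0.077 and -0.099 under the GAPDH and ACTB scaling. The cytoplasmic exonuclease XRN1 had a slope of 0.031 that did not pass. The ratio of XRN1 to XRN2 was 0.148 at 0 h and 0.141 at 4 h, a slope of -0.0076 (SE 0.025, exact adjusted p = 0.763), so a difference in slope was not detectable with this spread.

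**Figure D3:**
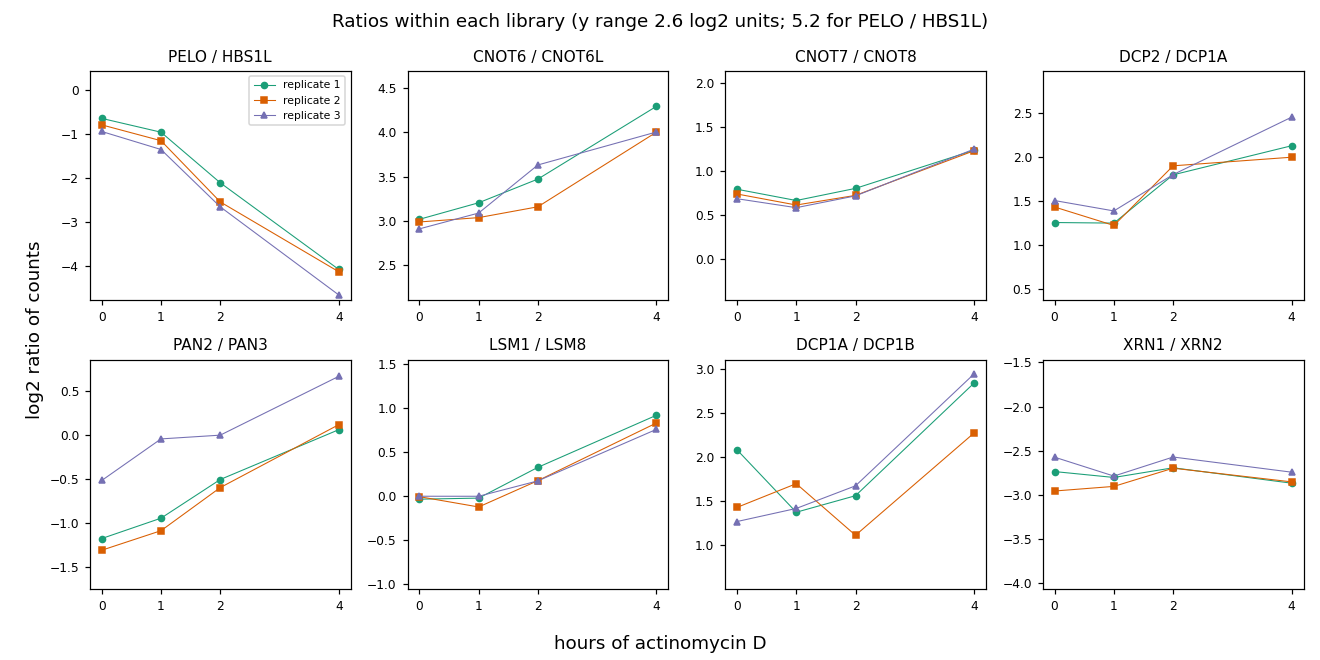
Log2 ratio of counts within each library against hours of ActD for 8 of the 14 gene pairs, with 1 line per replicate and an equal y range in all panels except that of PELO and HBS1L, which is wider. The PELO to HBS1L ratio falls in the 3 replicates, 6 ratios rise, and that of XRN1 to XRN2 does not pass the threshold.

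The LSM proteins form rings. The LSM1 to LSM7 ring binds the 3′ end of deadenylated mRNAs in the cytoplasm, whereas the ring with LSM8 in place of LSM1 binds U6 snRNA in the nucleus. Of 13 tested LSM genes 4 fell, 4 rose and 5 did not pass. The members that fell were LSM11 (slope -0.28), LSM8 (-0.23), LSM12 (-0.16) and LSM6 (-0.070). LSM7 (0.15), LSM4 (0.14), LSM3 (0.073) and LSM5 (0.067) rose under TMM, and under the GAPDH and ACTB scaling LSM3 and LSM5 were below 0 while LSM7 and LSM4 were at 0.019 and 0.0039 without passing.

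LSM1 and LSM8 decide which ring is formed. LSM1 was at 46.9, 55.9 and 51.2 CPM at 0 h, 46.2, 48.0 and 46.0 at 1 h, 47.7, 50.6 and 49.1 at 2 h and 52.1, 53.8 and 40.3 at 4 h. LSM8 was at 48.1, 56.1 and 51.2 CPM at 0 h, 46.9, 52.3 and 46.1 at 1 h, 38.0, 44.9 and 43.6 at 2 h and 27.6, 30.3 and 23.9 at 4 h. The LSM1 values at 0 and 4 h overlapped, whereas LSM8 at 4 h was below all earlier values. The LSM1 to LSM8 ratio was 0.989 at 0 h and 1.78 at 4 h, with a slope of 0.23 (SE 0.026, exact adjusted p = 0.000142). LSM8 fell by 0.23 per hour on the log2 scale (SE 0.027, adjusted p = 1.28e-06), and its annotated 3′ UTR of 12033 bases holds 59 copies of ATTTA, of which up to 7 lie within 30 bases.

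Among the shared ring subunits LSM4 and LSM7 had the highest slopes. LSM4 was at 112, 104 and 105 CPM at 0 h, 106, 98.9 and 109 at 1 h, 123.3, 118 and 123.0 at 2 h and 150.5, 149.8 and 159.7 at 4 h. LSM7 was at 34.8, 25.1 and 27.5 CPM at 0 h, 30.9, 30.4 and 28.1 at 1 h, 33.5, 33.0 and 34.8 at 2 h and 41.0, 43.9 and 46.4 at 4 h. The 4 h values of both lay above all earlier values. The slopes were 0.14 (SE 0.017, adjusted p = 1.92e-06) and 0.15 (SE 0.025, adjusted p = 4.87e-05). LSM14A and LSM14B, which act in translational repression, had slopes of -0.020 and 0.036, of which that of LSM14B passed with the replicate block (adjusted p = 0.0454, against 0.0788 without it) and passed as falling under the GAPDH and ACTB scaling (slope -0.10, adjusted p = 0.00228), and their ratio did not pass (exact adjusted p = 0.056) except without replicate 1 (0.0382). LSM10 and LSM11 belong to the U7 particle that processes histone mRNA, and LSM10 had a slope of 0.029 against -0.28 for LSM11.

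Of the 9 core exosome subunits, which form an RNA-binding ring without catalytic activity, 5 fell, 2 rose and 2 did not pass, with a median slope of -0.050. The members that fell were EXOSC3 (slope -0.30), EXOSC6 (-0.18), EXOSC4 (-0.16), EXOSC9 (-0.14) and EXOSC2 (-0.050). EXOSC5 (0.11) and EXOSC1 (0.061) rose under TMM, with slopes of -0.026 and -0.079 under the GAPDH and ACTB scaling. EXOSC7 had a slope of 0.028 and EXOSC8 one of -0.011. Subunits of 1 complex thus had slopes from -0.30 to 0.11.

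EXOSC3 is a subunit of the cap of the ring. EXOSC3 was at 36.8, 37.5 and 34.3 CPM at 0 h, 27.1, 28.7 and 28.6 at 1 h, 25.7, 24.1 and 21.4 at 2 h and 16.9, 15.1 and 15.1 at 4 h. Each time lay wholly below the one before it. EXOSC3 fell with a half-life of 3.37 h (slope SE 0.022, adjusted p = 1.6e-08) and, with TOB2, was 1 of the 2 members already lower at 1 h (-0.36 on the log2 scale).

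The catalytic subunits EXOSC10 and DIS3, the cytoplasmic DIS3L, the exosome-independent DIS3L2 and the Ski subunits SKIV2L and TTC37 made up 6 members, of which 1 fell and 2 rose. DIS3 was at 62.5, 63.1 and 55.4 CPM at 0 h, 54.0, 59.0 and 50.02 at 1 h, 52.1, 51.8 and 52.3 at 2 h and 46.2, 54.6 and 44.8 at 4 h. DIS3L was at 26.9, 27.2 and 27.8 CPM at 0 h, 31.1, 30.6 and 32.9 at 1 h, 33.2, 30.6 and 27.9 at 2 h and 33.1, 29.4 and 26.7 at 4 h. DIS3 fell with a slope of -0.074 (SE 0.021, adjusted p = 0.00569), which did not pass without replicate 1 (0.0883), and DIS3L had a slope of 0.018 that did not pass. The DIS3 to DIS3L ratio went from 2.21 to 1.63, a slope of -0.091 (SE 0.036, exact adjusted p = 0.038). This call was lost without any 1 of the replicates, with exact adjusted p-values of 0.284, 0.0854 and 0.0599 without replicates 1, 2 and 3. EXOSC10 (slope -0.022) did not pass, and DIS3L2, which degrades uridylated RNA, had a slope of 0.051 that passed with the replicate block (adjusted p = 0.024, against 0.0782 without it) and was -0.087 under the GAPDH and ACTB scaling (adjusted p = 0.00365).

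SKIV2L is the helicase and TTC37 the scaffold of the Ski complex, which feeds mRNA into the cytoplasmic exosome. SKIV2L was at 69.0, 64.6 and 63.5 CPM at 0 h, 70.3, 69.4 and 75.2 at 1 h, 86.3, 81.4 and 76.3 at 2 h and 90.3, 95.3 and 98.1 at 4 h. TTC37 was at 178, 166 and 179 CPM at 0 h, 191, 178 and 186 at 1 h, 196, 202 and 216 at 2 h and 221, 224 and 209 at 4 h. The 4 h values of SKIV2L were above all its earlier values, and those of TTC37 overlapped with the 2 h values. SKIV2L rose with a slope of 0.13 (SE 0.016, adjusted p = 1.68e-06) and TTC37 with 0.081 (SE 0.014, adjusted p = 9.29e-05), and under the GAPDH and ACTB scaling the slopes were -0.0041 and -0.057. The ratio of SKIV2L to TTC37 went from 0.377 to 0.434, a slope of 0.051 (SE 0.019, exact adjusted p = 0.0298), and did not pass without replicate 1 (0.0561), 2 (0.107) or 3 (0.124).

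The nonsense-mediated decay factors were the role group with the most rises under TMM. UPF1 is the central helicase, UPF2 and UPF3A or UPF3B link it to exon junctions, SMG1 with SMG8 and SMG9 forms the kinase that phosphorylates UPF1, and SMG5 and SMG6 bind phosphorylated UPF1. Of 10 tested factors 2 fell, 5 rose and 3 did not pass, with a median slope of 0.039. Under the GAPDH and ACTB scaling 8 of the 10 fell and 0 rose, against 64.2% and 0.931% of all tested genes. The factors that rose under TMM were UPF3A (slope 0.17), SMG5 (0.15), UPF1 (0.091), UPF3B (0.066) and SMG9 (0.049), and those that fell were SMG8 (-0.59) and UPF2 (-0.060). SMG1 and SMG6 had slopes of 0.0025 and 0.018 that did not pass.

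SMG8 was at 42.7, 44.6 and 39.7 CPM at 0 h, 38.1, 38.3 and 30.4 at 1 h, 24.8, 21.2 and 19.8 at 2 h and 11.8, 7.36 and 6.50 at 4 h. Values at 1 h were below those at 0 h in the 3 replicates and fell further at 2 and 4 h. SMG8 fell with a half-life of 1.71 h (slope SE 0.048, adjusted p = 3.22e-08), and the slopes of its partners SMG1 and SMG9 were 0.0025 and 0.049. SMG5 was at 232, 225 and 201 CPM at 0 h, 255, 246 and 225 at 1 h, 281, 268 and 265 at 2 h and 347, 326 and 313 at 4 h. SMG5 was higher at each later time in each replicate, and its 4 h values were above all earlier ones. The SMG5 slope (SE 0.015, adjusted p = 4.19e-07) was 0.0088 under the GAPDH and ACTB scaling and did not pass there.

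UPF3A and UPF3B are paralogs. UPF3A was at 6.79, 5.02 and 6.13 CPM at 0 h, 8.72, 6.38 and 6.90 at 1 h, 7.65, 7.19 and 9.10 at 2 h and 9.72, 8.42 and 11.5 at 4 h. The 4 h values of UPF3A were above its 0 h values, and the slope had an SE of 0.041 and an adjusted p of 0.00162 in edgeR. The ratio of UPF3A to UPF3B went from 0.113 to 0.157, a slope of 0.11 (SE 0.052) that did not pass (exact adjusted p = 0.0728) but did with arrangements within replicate numbers (0.0116) and without replicate 2 (0.0439).

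The symbols of SMG1 pseudogenes entered through the rule and are near-identical copies of SMG1, so their counts may be shared with SMG1 or with each other and are uncertain. SMG1P3 was at 2.65, 1.25 and 1.16 CPM at 0 h, 1.25, 1.38 and 2.27 at 1 h, 2.58, 1.42 and 2.52 at 2 h and 3.44, 3.77 and 5.49 at 4 h. SMG1P3 had a mean of 24 counts per library, and its slope of 0.37 (SE 0.080, adjusted p = 0.000753) was the highest of the members. SMG1P7 had a slope of 0.042 that did not pass. The other 3 had mean counts of 7.50, 7.33 and 0.50 per library.

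The changes built up with time. At 1 h 2 members were lower than at 0 h and 0 were higher, among 2.24% and 0.349% of all genes. At 2 h 16 were lower and 4 higher, against 19.4% and 10.8% of all genes, and at 4 h 25 were lower and 21 higher, against 31.6% and 28.7%. Leaving out any 1 replicate reduced the number higher at 4 h to 12, with 20.9% to 26.2% of all genes higher in these fits. At 4 h the 3 values of 25 members lay wholly below those at 0 h (37.9%, against 33.0% of all genes) and those of 21 wholly above (31.8%, against 30.4%). A departure from a straight line was found for TOB2 and CNOT4, while 2.7% of all genes departed. With the replicate number as a block 18 members departed, among 17.2% of all genes, namely PELO, SMG8, TOB1, TOB2, CNOT1, CNOT2, CNOT3, CNOT4, CNOT8, DCP1B, DCP2, XRN1, EXOSC4, EXOSC9, EXOSC10, LSM3, LSM4 and LSM11.

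Levels before ActD were compared between members per kb of the GENCODE canonical transcript. XRN2 was the highest at 86.6 ± 3.56 CPM per kb (SD, n = 3), followed by EXOSC9 at 68.7 ± 4.52, LSM4 at 62.8 ± 2.56 and LSM7 at 59.4 ± 10.3, and of these EXOSC9, LSM4 and LSM7 did not differ beyond their SDs. CNOT6L was the lowest of the coding members at 1.60 ± 0.13 CPM per kb, followed by LSM12 at 2.13 ± 0.18 and UPF3A at 2.52 ± 0.38, which overlapped within their SDs. XRN1 was at 4.34 ± 0.43, far below XRN2. Within the complexes the range was wide, from 1.60 to 50.3 (CNOT1) in CCR4-NOT and from 4.07 (EXOSC6) to 68.7 in the exosome core. PELO at 11.7 ± 0.73 and HBS1L at 12.5 ± 0.52 did not differ at 0 h beyond their SDs. A level per kb depends on the transcript chosen, and the canonical transcripts of LSM8 and EXOSC6 have 12384 and 5163 bases, so their values of 4.19 and 4.07 would be higher if shorter forms were the main ones.

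**Figure D4:**
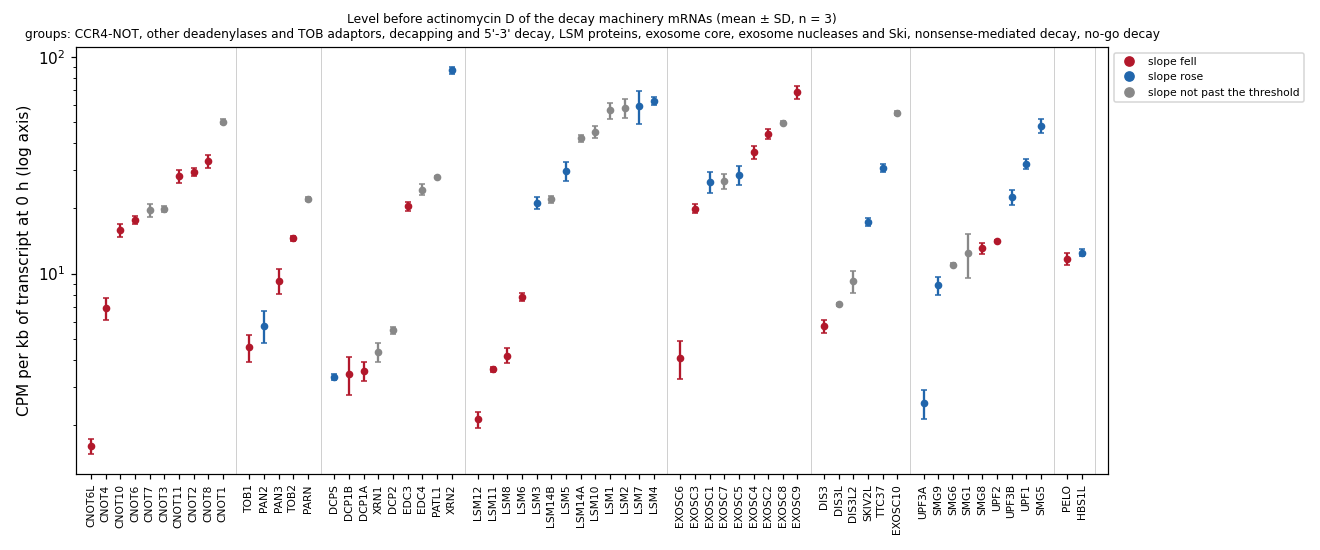
Level at 0 h in CPM per kb of canonical transcript (log axis, mean ± SD, n = 3) of the coding members, ordered within role groups and coloured by the call of their TMM slope. Levels run from 1.60 (CNOT6L) to 86.6 (XRN2), and members that fell are found at both low and high levels.

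Several of the steepest members have few exons. PELO has 3, SMG8 and EXOSC3 have 4, and TOB1 and TOB2 have 2, whereas CNOT4 and CNOT6L have 12 and DCP1B has 9. Of the 14 coding members with at most 4 exons, a limit chosen after the values were seen, 10 fell (71.4%), and of the 50 with more exons 16 fell (32.0%). Among all tested protein-coding genes the same shares were 51.3% and 28.2%. The median number of exons per kb of transcript was 1.97 in the 26 members that fell, 4.69 in the 17 coding members that rose and 4.50 in the 21 not past the threshold, and in all coding genes 1.95, 4.42 and 3.16. Across the 64 coding members exons per kb and slope had a Pearson r of 0.45 and a Spearman rho of 0.48, and across 11376 genes 0.42 and 0.46. These are descriptions across genes measured in the same libraries, and genes are not independent replicates.

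**Figure D5:**
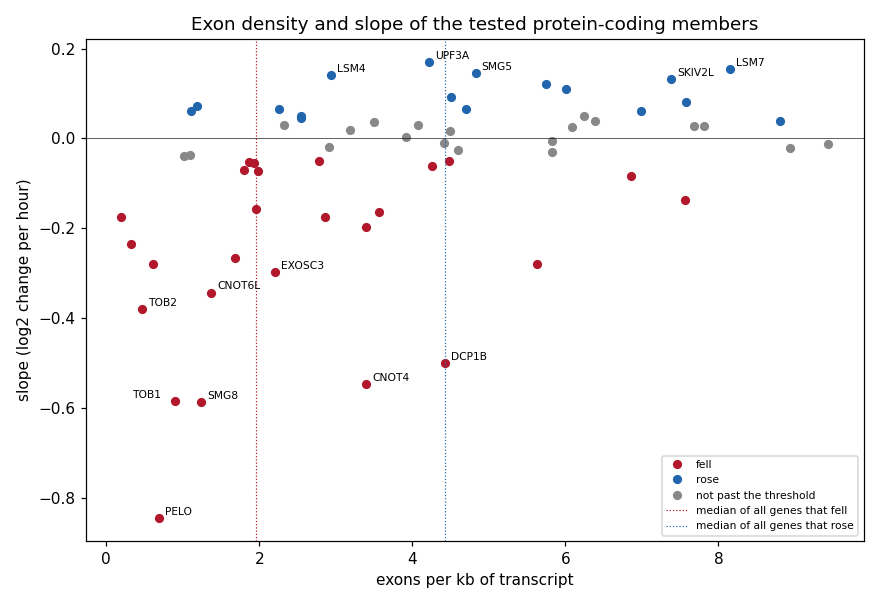
Slope (log2 change per hour, TMM scaling) against exons per kb of canonical transcript for the tested coding members, with the median exon density of all falling genes (1.95) and all rising genes (4.42) as dotted lines. Steep falls lie mostly at the left, with DCP1B, CNOT4 and CNOT2 as exceptions, and the rises on this scale are turned or lost under the GAPDH and ACTB scaling.

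Slope and the level per kb at 0 h had an r of 0.36 (rho 0.33) across the 64 members and 0.15 (rho 0.19) across all genes, exon number one of 0.33 (rho 0.35) and 0.21 (rho 0.20), and GC percent one of 0.27 (rho 0.35) and 0.17 (rho 0.27). The pentamer ATTTA was present in the 3′ UTR of 84.6% of the members that fell and 76.5% of those that rose, and in 85.5% and 60.2% of all such genes. Copies per kb of 3′ UTR and slope had an r of -0.26 (rho -0.30) across members and -0.12 (rho -0.23) across all genes. The nonamer TTATTTATT, an AU-rich element form that contains the pentamer, was found in 6 of 64 members (9.38%, against 10.1% of all genes), and the Pumilio motif TGTANATA, with N for any base, in 20 (31.2%, against 31.4%). The Pumilio motif was in 34.6% of the members that fell and 23.5% of those that rose, and in 45.6% and 16.4% of all such genes. All motifs were searched on the transcript strand only.

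Other genes of the pathway were taken from 4 lists of partners of these complexes. Of 61 symbols 52 were in the table and 50 were tested, of which 24 fell and 10 rose, with a median slope of -0.032, beside 32.1% and 30.7% of all tested genes. Among the CCR4-NOT and poly(A) partners 6 of 12 fell and 4 rose, from BTG2, an antiproliferative relative of the TOB proteins (slope -0.99, SE 0.086, mean of 24.5 counts), to the nuclear poly(A)-binding protein PABPN1 (0.18, SE 0.057). RQCD1, the older symbol of CNOT9, fell from 146.0 ± 9.96 to 91.9 ± 3.09 CPM (slope -0.17, SE 0.017, adjusted p = 1.83e-07). Of the decapping partners 5 of 9 fell and 2 rose, from PNRC1 (-0.71, SE 0.10) to GIGYF1 (0.15, SE 0.020). Of the exosome cofactors 11 of 14 fell and 1 rose, from RBM7 of the nuclear exosome targeting complex (-0.57, SE 0.046) to WDR61, another subunit of the Ski complex (0.082, SE 0.021). Of the surveillance partners, which include the exon junction complex and the release factors, 2 of 15 fell and 3 rose, from the release factor GSPT2 (-0.67, SE 0.046) to the ATPase RUVBL2 (0.11, SE 0.014). Under the GAPDH and ACTB scaling PABPN1, GIGYF1, WDR61 and RUVBL2 did not pass, and WDR61 and RUVBL2 were below 0.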

How the data were processed

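Total poly(A) RNA of 12 samples was sequenced with an Illumina TruSeq stranded mRNA kit. The deposited table holds unnormalised counts for each gene symbol, and the submitters' processing notes name FastQC, STAR and hg19. The counter, its strand setting and all versions are not given in the sources used here, so overlapping, antisense and near-identical genes are uncertain. Each column was matched to 1 sample by its label (0 columns were left unmapped).

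The quasi-likelihood F test of edgeR 4.0.16 (R 4.3.3, TMM) was fitted over the 12 libraries with time in hours as a number, for the 12032 genes averaging 10 counts or more. Time as 4 groups gave the contrasts against 0 h and, beyond the straight line, the test of departure. The common biological coefficient of variation was 0.0905, TMM factors were 0.924 to 1.05, and no 2 replicates agreed within counting noise. Pair ratios used counts plus 0.5 and exact permutation in Python 3.11.15 with NumPy 2.4.6. Alternatives were DESeq2 1.42.0 (Wald test, and a likelihood ratio test for the departure), 3 other scalings, 2 other count minimums, a replicate block, and leaving out replicates or times.

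Replicate numbers are from the labels. Deviations from the time means of samples with the same number correlated at 0.347 to 0.657 (18 pairs) and those of different numbers at -0.439 to 0.0953 (36 pairs), so the numbers pair the samples.

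Transcript features are from GENCODE 44 canonical transcripts on GRCh38, matched by symbol or RefSeq synonym (24377 of 26334 symbols, 69 of 69 members). Its build differs from hg19, and no coordinate was converted. Values in every library are given for the 8 lowest and 6 highest slopes past the threshold with the same direction in the 3 replicates and for both genes of each pair past the threshold. The members, lists and pairs were chosen with earlier results of these data known. One member and its pair enter the counts but are not reported here.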

Additional observations from a re-analysis of the deposited data

How the results depend on the processing

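The 26 falls kept their call under the 3 other scalings. DESeq2's size factors moved the median slope of all genes by 0.00014 and also kept the 18 rises. Library totals and the GAPDH and ACTB scaling moved it by -0.039 and -0.14, so they could hardly remove a fall, and rises were lost under both. With library totals 9 members rose, 9 were higher at 4 h and the median slope was -0.050. The slopes of 12 members changed sign, among them DIS3L (-0.022). Scaling to GAPDH and ACTB gave 56 falling, 1 rising, 54 lower and 0 higher at 4 h and a median of -0.15. The slopes of 26 members changed sign there, among them SKIV2L (-0.0041), DIS3L (-0.12), PAN2 (-0.018), TTC37 (-0.057) and HBS1L (-0.093). These scalings moved all genes too, with 18.6% rising under the former and 64.2% falling under the latter. The cause was not tested. DESeq2's size factors left 1 departing member, while its own test called 26 falling and 18 rising, the same counts as edgeR. Without a count minimum 25 fell and 14 rose, among 21.4% and 18.7% of all genes.

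The replicate block gave 18 departing members and the UPF3A to UPF3B slope of 0.11 passed. Beyond these it added CNOT7, LSM14B and DIS3L2 and changed no other slope call of a member or pair given here.

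Without 4 h, 15 members fell and 4 rose, among 18.4% and 12% of all genes, and the median was 0.0054. Among the members given by library, the slopes of CNOT6, CNOT8, DIS3, PAN2, HBS1L, LSM7, UPF3A and SMG1P3 no longer passed in edgeR (adjusted p from 0.0697 to 0.441). That of DCP2 did pass (0.0304). The ratio slopes of TOB1 to TOB2 (0.0048), DCP1A to DCP1B (-0.072) and XRN1 to XRN2 (0.051) changed sign, and those of CNOT7 to CNOT8 (0.0044), DIS3 to DIS3L (-0.18), PAN2 to PAN3 (0.32), DCP2 to DCP1A (0.22), SKIV2L to TTC37 (0.037) and LSM1 to LSM8 (0.12) no longer passed. Without 0 h, among the same members, the slopes of CNOT6 (adjusted p = 0.14), DIS3 (0.106) and PAN2 (0.215) no longer passed in edgeR. The slopes of 5 members changed sign, among them DIS3L (-0.033), DCP2 (0.015) and LSM1 (0.012). The ratio slopes of DIS3 to DIS3L (-0.026) and SKIV2L to TTC37 (0.057) no longer passed. These fits hold 9 libraries.

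Leaving out 1 replicate gave 21 to 25 falling, 11 to 15 rising, 18 to 26 lower and 12 to 12 higher at 4 h, 0 to 1 departing and medians of -0.018 to -0.011. Of all genes 28.8% to 30.7% fell and 24.6% to 27.8% rose in these fits. At 4 h 27.1% to 30.4% of all genes were lower and 20.9% to 26.2% higher. The DIS3L slope ran from -0.0084 (without replicate 1) to 0.038 and that of LSM1 from -0.034 to 0.015 (without replicate 3). Ratio slopes ran from -0.28 to -0.16 (TOB1 to TOB2), -0.12 to -0.053 (DIS3 to DIS3L), -0.089 to -0.037 (LSM14A to LSM14B), -0.026 to 0.0021 (XRN1 to XRN2), 0.033 to 0.062 (SKIV2L to TTC37), 0.074 to 0.14 (UPF3A to UPF3B) and 0.21 to 0.34 (DCP1A to DCP1B). With 8 libraries the smallest p of the permutation test is 0.000397. Among the members given by library, depth limits SMG1P3, DCP1B, TOB1 and UPF3A most, with means of 24 to 78 counts.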
